A study of Mus musculus with 58 samples.

Results

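This account follows 8 RNAs of ribosome and small RNA production through 58 whole-liver libraries. They are the ribosomal RNA precursor (Rn45s), the RNA subunits of the processing enzymes RNase MRP (Rmrp) and RNase P (Rpph1), and 5 genes that host small nucleolar RNAs (snoRNAs), namely Gas5, Snhg1, Snhg3, Snhg5 and Snhg12. The members are rows of the count table matched by gene symbol, 8 of 24537, and each matched 1 row. The set was selected on measured values of these libraries, which the record does not name further, and library 858 was singled out from measured values, so what is given for that library is a description with no test.

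Every mouse was a male of strain C57BL6/J and carried AAV8, a viral vector. A TBG promoter, active in hepatocytes, drove either Myc, a transcription factor that promotes growth, or mApple, a red fluorescent protein that served as control. Every mouse was also dosed by gavage 2 times a day, with breaks at weekends, for 30 days, with ruxolitinib (45 mg/kg), an inhibitor of the JAK kinases, or with vehicle. Among old mice, Myc was combined with the drug in 14 libraries and with vehicle in 11, and mApple with the drug in 9 and with vehicle in 8. Young mice, aged 4 months, carried Myc with ruxolitinib (10) or mApple with vehicle (6). Libraries 854 to 871 are a first sequencing batch (18 in all; mice of 25 months) and the other 40, from mice of 24 months and from all the young mice, are a second, so among old mice age and batch cannot be told apart. Libraries were made from polyA RNA. The labels call each library a sample of its own, and p-values measure the spread between these samples.

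Ribosomal RNA is copied by RNA polymerase I as a long precursor that is then cut and chemically modified in the nucleolus. RNase MRP cuts that precursor, RNase P trims the leader off precursor transfer RNAs, and both are enzymes built around an RNA made by RNA polymerase III. SnoRNAs guide the methylation and pseudouridylation of ribosomal RNA; most are cut out of introns, and the spliced RNA of their non-coding host genes is commonly short-lived. The precursor, Rmrp and Rpph1 carry no long polyA tail, whereas the spliced host RNAs are made by RNA polymerase II and are polyadenylated. Myc is known to raise transcription by all of these polymerases in growing cells.

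On mm10, Rn45s lies on chromosome 17 (39842997 to 39848829, plus strand), Rmrp on chromosome 4 (43492785 to 43493059, minus strand) and Rpph1 on chromosome 14 (50807447 to 50807771, minus strand). Gas5 is on chromosome 1 (161035166 to 161038537), Snhg1 on chromosome 19 (8723487 to 8726326) and Snhg5 on chromosome 9 (88521053 to 88522897). Snhg12 (132308678 to 132311024, plus strand) and Snhg3 (132351933 to 132353686, minus strand) are neighbours on chromosome 4, 40908 bases apart. GENCODE M21 annotates 9 snoRNAs inside the Gas5 locus, 8 in Snhg1, 4 in Snhg12, and 2 each in Snhg3 and Snhg5. The counting used no strand, so Ccdc107 (with Rmrp) and Gm17300 (with Snhg3), which overlap on the opposite strand, can lend reads to these rows. Ccnb1ip1 (with Rpph1) and Rcc1 (with Snhg3) overlap on the same strand and can lend reads too. The Rn45s row overlaps GENCODE genes Gm26917, Gm42418 and AY036118 and a ribosomal RNA record, and counts over it cannot tell precursor from mature ribosomal RNA or 1 repeat of the ribosomal DNA from another.

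The promoters of the 4 host genes that were higher with Myc in every Myc comparison are shown because these genes moved together. Each runs from 250 bases before to 50 after the gene's start, on the gene's strand, from RefSeq on GRCm38.p6. Capitals mark TATAA or TATATA starting 40 to 20 bases before the start. They also mark a pyrimidine run, a C followed by 4 or more C or T, starting within 10 bases of the start. Snhg1 has neither. Messenger RNAs of the translation machinery begin with such a run at the start itself. The rule used here is looser and does not show that kind of start, and in Snhg5 the run lies 9 bases after the annotated start.
Gas5: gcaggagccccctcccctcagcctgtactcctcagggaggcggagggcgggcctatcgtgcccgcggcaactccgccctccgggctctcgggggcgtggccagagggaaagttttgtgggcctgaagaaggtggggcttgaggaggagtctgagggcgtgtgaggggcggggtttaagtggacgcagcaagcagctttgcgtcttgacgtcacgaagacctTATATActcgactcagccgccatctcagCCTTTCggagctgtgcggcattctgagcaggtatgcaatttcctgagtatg
Snhg1: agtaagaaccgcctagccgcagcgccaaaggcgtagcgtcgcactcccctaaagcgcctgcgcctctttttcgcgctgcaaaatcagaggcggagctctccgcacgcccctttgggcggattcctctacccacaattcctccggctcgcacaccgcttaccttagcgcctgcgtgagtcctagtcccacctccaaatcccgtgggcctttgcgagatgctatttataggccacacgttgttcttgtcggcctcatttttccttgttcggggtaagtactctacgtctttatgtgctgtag
Snhg12: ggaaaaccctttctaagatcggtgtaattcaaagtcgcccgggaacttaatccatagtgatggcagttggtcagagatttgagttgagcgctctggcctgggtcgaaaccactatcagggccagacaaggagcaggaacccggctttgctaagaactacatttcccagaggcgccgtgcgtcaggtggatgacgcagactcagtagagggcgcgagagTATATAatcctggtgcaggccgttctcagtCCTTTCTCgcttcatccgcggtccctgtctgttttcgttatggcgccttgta
Snhg5: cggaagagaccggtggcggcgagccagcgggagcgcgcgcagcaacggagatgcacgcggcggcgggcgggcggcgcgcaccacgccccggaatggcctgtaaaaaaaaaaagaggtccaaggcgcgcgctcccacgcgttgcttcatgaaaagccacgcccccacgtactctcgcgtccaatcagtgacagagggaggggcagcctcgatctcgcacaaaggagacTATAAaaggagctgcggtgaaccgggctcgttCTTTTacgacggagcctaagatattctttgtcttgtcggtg
These windows are chr1:161034916-161035215 (plus strand) for Gas5, chr19:8723237-8723536 (plus) for Snhg1, chr4:132308428-132308727 (plus) for Snhg12 and chr9:88522848-88523147 (minus) for Snhg5. With the window of Snhg3, which has the pyrimidine run and no TATA match at that distance, 3 of 5 host windows held the TATA letters, against 3.87% of 32851 RefSeq windows of the same length. The pyrimidine run was found in 4 of 5, against 30.7% of all windows. The Myc recognition letters CACGTG, which read the same on both strands, were in 0 of 5 host windows and in 7.15% of all windows. Such matches describe letters only, and a window without CACGTG says nothing of binding by Myc.

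The RNase MRP and RNase P RNAs are printed because their letters bear on how a polyA library can hold them. Both are from GENCODE M21 on GRCm38, read from the minus strand, at chr4:43492788-43493058 and chr14:50807449-50807767, and capitals mark the longest runs of A in each. Of Rpph1 the first 300 bases are printed, chr14:50807468-50807767.
Rmrp: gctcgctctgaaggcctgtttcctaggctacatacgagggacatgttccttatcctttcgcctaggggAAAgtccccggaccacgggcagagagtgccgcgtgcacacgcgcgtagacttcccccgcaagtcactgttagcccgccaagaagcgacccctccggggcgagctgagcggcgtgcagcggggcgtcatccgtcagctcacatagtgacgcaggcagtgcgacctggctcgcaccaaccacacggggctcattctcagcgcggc
Rpph1: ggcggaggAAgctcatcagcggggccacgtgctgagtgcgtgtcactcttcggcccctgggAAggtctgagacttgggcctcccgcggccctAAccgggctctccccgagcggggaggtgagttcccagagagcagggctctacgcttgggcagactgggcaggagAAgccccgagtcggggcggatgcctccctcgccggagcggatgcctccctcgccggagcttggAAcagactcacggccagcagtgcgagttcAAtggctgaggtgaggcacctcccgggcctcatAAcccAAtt
The longest run of A is 3 bases in the 271 bases of Rmrp and 2 bases in the 319 bases of Rpph1. A longer run than that of Rmrp occurs in 67.3%, and than that of Rpph1 in 95.9%, of 12328 GENCODE transcripts of 200 to 400 bases. A run of 8 occurs in only 2.29% of them, so most transcripts of this length lack a long run too. Neither ends in a run of A, and 2 and 3 of their last 20 bases are A.

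Libraries held 10.68 to 40.98 M exon counts (median 14.59 M). Levels below are CPM, counts per M exon counts, with TMM scaling over all 58 libraries. Hepatocyte markers were high in every group, with a summed level of at least 44610 CPM. Myc itself, which checks the vector labels, was at 24.4 to 111 CPM in old Myc ruxolitinib livers and 6.93 to 132 CPM in old Myc vehicle livers. It was at 2.36 to 19.3 CPM in old mApple ruxolitinib and 2.99 to 56.7 CPM in old mApple vehicle livers, and at 36.0 to 61.4 CPM in young Myc against 4.24 to 22.4 CPM in young mApple livers. Library 870, labelled old Myc vehicle, had the 6.93 CPM, within the mApple range. It was not alone there, as the 2 old vehicle groups overlapped widely. Library 855, labelled old mApple vehicle, had the 56.7 CPM, above the old Myc vehicle median of 37.9 CPM. Libraries 860 and 861 (old Myc ruxolitinib) and 864 and 865 (old mApple ruxolitinib) were left out together in a further fit, chosen with earlier results known; leukocyte markers summed to 2726 CPM in library 860 and 878 CPM in library 864, the highest of their groups.

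Under vehicle, the Myc vector came with more of all 5 snoRNA host RNAs in old livers. Gas5, a host whose spliced RNA is abundant in resting cells, was at 94.4 CPM (lowest), 134 CPM (median) and 222 CPM (highest) in 11 Myc livers, against 50.6, 58.8 and 77.8 CPM in 8 mApple livers. The groups did not overlap: the lowest Myc library, 870, lay above every mApple library. The log2 fold change was 1.16 ± 0.13 (SE; edgeR quasi-likelihood test, Benjamini-Hochberg adjusted p = 1.65e-05), a fold of 2.24.

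Snhg1, which hosts box C/D snoRNAs, had 7.17, 11.2 and 13.6 CPM (lowest, median, highest) in Myc livers, against 3.35, 4.25 and 7.14 CPM in mApple livers. The lowest Myc library stood just above the highest mApple library, and the log2 fold change was 1.22 ± 0.12 (edgeR adjusted p = 6.6e-06). Snhg12 had 9.40, 12.2 and 17.3 CPM in Myc livers, against 5.06, 5.996 and 7.22 CPM in mApple livers (1.04 ± 0.12, edgeR adjusted p = 1.77e-05). Snhg5, host of the snoRNAs Snord50a and Snord50b, had 5.97, 7.71 and 10.2 CPM in Myc livers, against 2.59, 3.67 and 5.57 CPM in mApple livers (0.99 ± 0.14, edgeR adjusted p = 0.000107). For these 2 genes the groups did not overlap either. Of all 13403 tested genes, 1.01% had groups that did not overlap.

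Snhg3, which hosts the snoRNAs Snora73a and Snora73b, rose least of the 5. It had 3.55, 6.52 and 11.3 CPM in Myc livers, against 2.96, 4.29 and 5.91 CPM in mApple livers, and 7 of the 11 Myc values exceeded all mApple values. Its log2 fold change was 0.57 ± 0.16 (edgeR adjusted p = 0.016), and the call was lost in each batch alone (0.77 ± 0.22, edgeR adjusted p = 0.0646, in the first, and 0.37 ± 0.20, adjusted p = 0.314, in the second). Rcc1, the regulator of chromosome condensation whose locus runs over Snhg3, rose as well (0.38 ± 0.12, edgeR adjusted p = 0.0282), and its share in the Snhg3 counts was not tested. The other 4 hosts passed in each batch alone, with log2 fold changes of 1.04 to 1.36 in the first and 0.86 to 1.11 in the second.

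All 8 RNAs were called higher in this comparison, where 10.8% of 13403 genes were called higher and 19.0% were called in either direction. Rmrp entered this test mainly through Myc livers, where it was high, and dropped out without any 1 of several of them. Its call is therefore not to be weighed against these shares. The median log2 fold change of all tested genes was -0.02. Markers of dividing cells rose with Myc (4 of 4), summing to 7.89 to 78.5 CPM in Myc livers, against 2.76 to 14.4 CPM in mApple livers. Of hepatocyte markers 3 of 6 fell, and of endothelial markers 3 of 4; the part of these cells in the host RNA values was not tested. In whole liver, more RNA per cell and more cells of a type cannot be told apart.

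**Figure D1:**
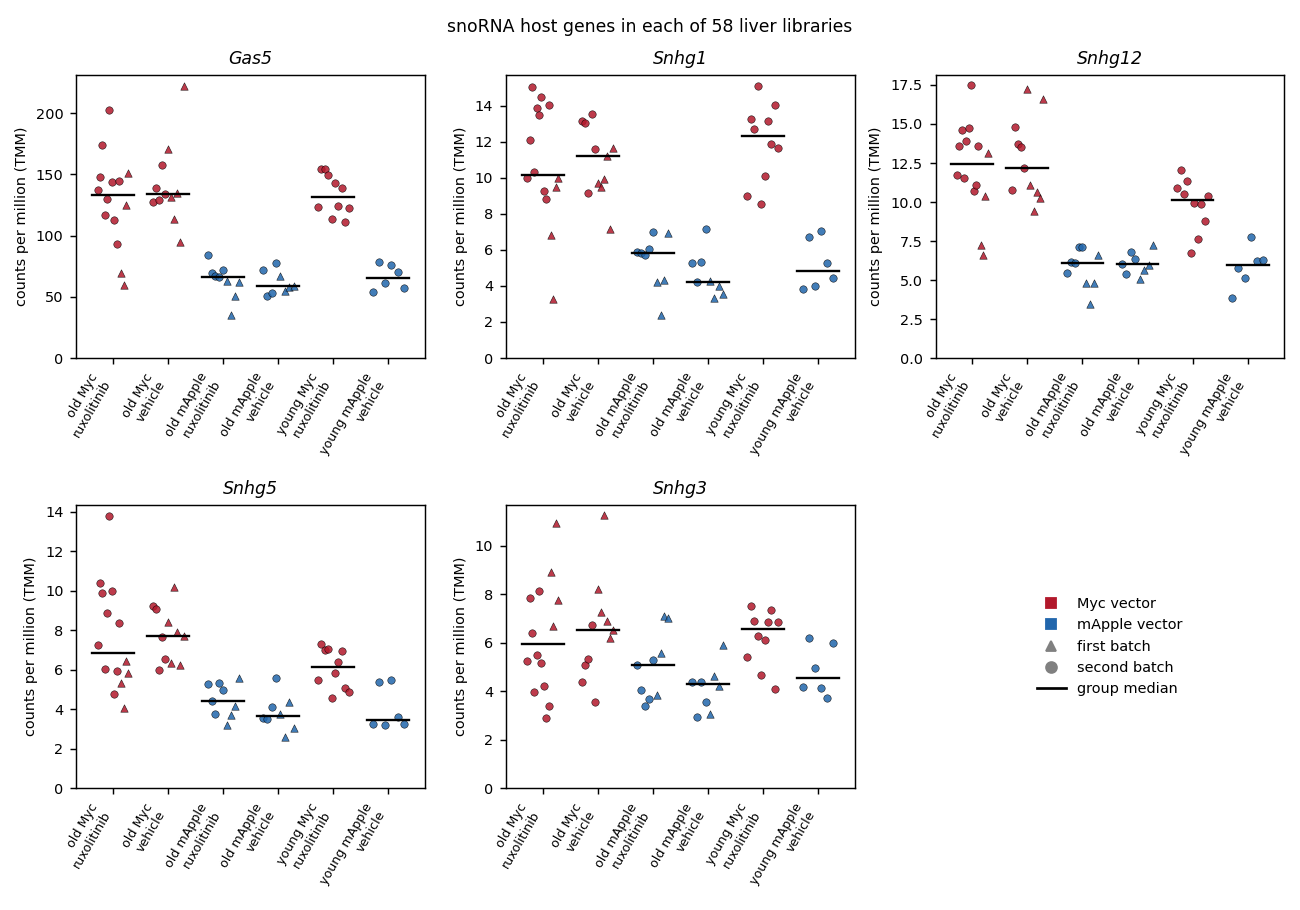
Level (CPM with TMM scaling, linear axis from 0) of the 5 snoRNA host genes in each library, by group; red is the Myc vector and blue mApple, triangles are the first batch and circles the second, and bars are group medians. Gas5 medians were 133 and 134 CPM in the old Myc groups, 66.3 and 58.8 CPM in the old mApple groups, and 132 against 65.8 CPM in young Myc and young mApple livers.

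Under ruxolitinib, 4 of the 8 RNAs were called in old livers, all higher with Myc and all snoRNA hosts, where 8.49% of 13681 genes were called higher and 14.5% in either direction. Gas5 had 59.9, 133 and 202 CPM (lowest, median, highest) in 14 Myc livers, against 35.4, 66.3 and 84.3 CPM in 9 mApple livers. Of the 14, 12 lay above every mApple library; the other 2 were 860 and 861, at 69.7 and 59.9 CPM. The log2 fold change of Gas5 was 0.94 ± 0.15 (edgeR adjusted p = 0.000251).

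Snhg12 had 6.62, 12.47 and 17.5 CPM in Myc livers, against 3.47, 6.06 and 7.14 CPM in mApple livers (0.99 ± 0.12, edgeR adjusted p = 2.61e-05), with 13 of 14 Myc libraries above all mApple libraries. Snhg1 had 3.26, 10.2 and 15.02 CPM in Myc livers, against 2.37, 5.83 and 6.97 CPM in mApple livers (0.88 ± 0.17, edgeR adjusted p = 0.0015). Snhg5 had 4.07, 6.85 and 13.8 CPM in Myc livers, against 3.23, 4.42 and 5.57 CPM in mApple livers (0.66 ± 0.16, edgeR adjusted p = 0.0092). All 4 overlapped between the groups, where 0.256% of all tested genes did not, with library 861 the lowest Myc library in each. Snhg3 did not pass (0.38 ± 0.17, edgeR adjusted p = 0.129), while Rcc1 did (0.75 ± 0.19, adjusted p = 0.011).

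In the first batch alone, with 4 libraries a group, none of the 4 hosts was called (log2 fold changes 0.35 to 0.92, edgeR adjusted p = 0.238 to 0.484), and neither was any other gene. In the second batch alone the same 4 were called (0.84 to 1.06). Without libraries 860, 861, 864 and 865 the log2 fold changes were 0.82 for Snhg5, 1.07 for Gas5, 1.10 for Snhg1 and 1.14 for Snhg12. Leukocyte markers summed to 96.4 to 2726 CPM in the Myc and 111 to 878 CPM in the mApple libraries of this comparison, with 0 of 8 called, and 4 of 4 markers of dividing cells rose; their part in the host values was not tested.

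In young livers Myc with ruxolitinib was set against mApple with vehicle, so vector and drug change together. Again 4 of the 7 tested RNAs, the same 4 hosts, were called higher, where 13.5% of 12829 genes were called higher and 27.5% in either direction. Gas5 had 111, 132 and 155 CPM (lowest, median, highest) in 10 Myc ruxolitinib livers, against 53.9, 65.8 and 78.2 CPM in 6 mApple vehicle livers. These did not overlap, and neither did the libraries of 7.61% of all tested genes; the log2 fold change was 1.01 ± 0.10 (edgeR adjusted p = 5.35e-07). Snhg1 did not overlap either, at 8.55, 12.3 and 15.1 CPM in Myc ruxolitinib livers, against 3.83, 4.84 and 7.07 CPM in mApple vehicle livers (1.19 ± 0.15, edgeR adjusted p = 1.39e-05).

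Snhg12 had 6.72, 10.2 and 12.02 CPM in young Myc ruxolitinib livers, against 3.83, 5.97 and 7.78 CPM in young mApple vehicle livers (0.75 ± 0.14, edgeR adjusted p = 0.000599). Snhg5 had 4.58, 6.12 and 7.29 CPM in young Myc ruxolitinib livers, against 3.21, 3.43 and 5.50 CPM in young mApple vehicle livers (0.58 ± 0.15, edgeR adjusted p = 0.00775). In both of these hosts the groups overlapped, with 8 and 6 of 10 Myc ruxolitinib libraries above the highest mApple vehicle library. Snhg3 was just short of the threshold (0.35 ± 0.15, edgeR adjusted p = 0.0808); it passed when any of libraries 1123, 1127, 1130 or 1134 was left out, or with library totals in place of TMM (0.53, adjusted p = 0.00741). In this comparison 3 of 6 hepatocyte and 4 of 5 red blood cell markers fell, with red blood cell markers summing to a median of 391 CPM in Myc ruxolitinib livers (255 to 616), against 558 CPM in mApple vehicle livers (highest 1383). Of 4 endothelial markers 1 rose and 1 fell, and of 4 markers of dividing cells 0 were called; the part of these cells in the host values was not tested.

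The same contrast in old livers of the second batch, which shares libraries with both old Myc comparisons above, called the same 4 of 8, where 6.56% of 13789 genes were called higher and 10.9% in either direction. Gas5 was at 92.9, 141 and 202 CPM (lowest, median, highest) in 10 Myc ruxolitinib livers, against 50.6, 53.0, 72.1 and 77.8 CPM in 4 mApple vehicle livers. The log2 fold changes were 1.12 ± 0.18 for Gas5, 1.11 ± 0.17 for Snhg1, 1.09 ± 0.13 for Snhg12 and 0.98 ± 0.25 for Snhg5 (edgeR adjusted p = 0.00221, 0.00196, 0.000323 and 0.0216). Gas5, Snhg1 and Snhg12 did not overlap between the groups, as in 6.27% of tested genes. The Snhg5 call was lost when library 1135, 1136 or 1137 was left out (0.91 to 0.98, edgeR adjusted p = 0.055 to 0.0827). Here 3 of 4 endothelial, 2 of 5 red blood cell and 1 of 6 hepatocyte markers fell and 2 of 4 markers of dividing cells rose (median log2 fold changes -0.77, -0.66, -0.30 and 2.21); their part in the host values was not tested.

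Whether this contrast differed between old and young livers was tested as an interaction. The estimate, old minus young, was 0.10 ± 0.19 for Gas5, -0.09 ± 0.23 for Snhg1, 0.33 ± 0.20 for Snhg12 and 0.40 ± 0.28 for Snhg5 on the log2 scale. None of the 8 RNAs passed (edgeR adjusted p = 0.453 to 0.966), where 0.256% of 13652 genes did. The 95% interval for Snhg12 was -0.05 to 0.71 and for Snhg5 -0.15 to 0.95, both including 0.

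Between old and young Myc ruxolitinib livers, 2 of the 7 tested RNAs were called, both higher in old livers, where 18.0% of 12768 genes were called higher and 33.6% in either direction. Snhg12 had 10.7, 13.6 and 17.5 CPM (lowest, median, highest) in 10 old livers, against 6.72, 10.2 and 12.02 CPM in 10 young livers. All 10 old libraries exceeded the young median and 6 exceeded the highest young library (0.43 ± 0.10, edgeR adjusted p = 0.00241). Snhg5 had 4.75, 8.60 and 13.8 CPM in old livers, against 4.58, 6.12 and 7.29 CPM in young livers (0.48 ± 0.15, edgeR adjusted p = 0.021). Myc counts were lower in old than in young livers of this contrast (-0.69 ± 0.10, edgeR adjusted p = 3.33e-05). Of 6 hepatocyte markers 2 rose and 2 fell, 2 of 4 endothelial markers fell, and 1 of 5 tested leukocyte and 1 of 4 dividing-cell markers rose. The part of Myc or of these cells in the host values was not tested.

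Without added Myc, 0 of the 7 tested RNAs were called between old and young mApple vehicle livers by edgeR, where 1.11% of 13196 genes were called, with 2369 genes at an unadjusted p under 0.05. The hosts ran from -0.35 ± 0.20 for Snhg3 to 0.07 ± 0.22 for Snhg1 on the log2 scale, with 4 old libraries set against 6 young ones. The interval for Snhg12 was -0.29 to 0.43 and for Snhg5 -0.39 to 0.49, with upper ends as large as the differences seen with Myc and ruxolitinib. Snhg3 had 2.96, 3.54, 4.37 and 4.39 CPM in the 4 old livers, against 3.73, 4.55 and 6.19 CPM (lowest, median, highest) in the 6 young livers, so all 4 old libraries lay under the young median.

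Ruxolitinib against vehicle changed no host RNA past the threshold. In old Myc livers the hosts ran from -0.17 ± 0.16 (Gas5, edgeR adjusted p = 0.61) to 0.13 ± 0.16 (Snhg3), and in old mApple livers from -0.10 ± 0.12 (Snhg12) to 0.27 ± 0.16 (Snhg3, edgeR adjusted p = 0.586). The 95% interval for Gas5 in mApple livers was -0.23 to 0.23 on the log2 scale. None of the 8 RNAs in Myc livers and none of the 7 tested in mApple livers was called, where 0.52% of 13449 and 0.397% of 13340 genes were called. At an unadjusted p under 0.05 there were 1909 and 1306 genes, Rn45s among them in both.

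**Figure D2:**
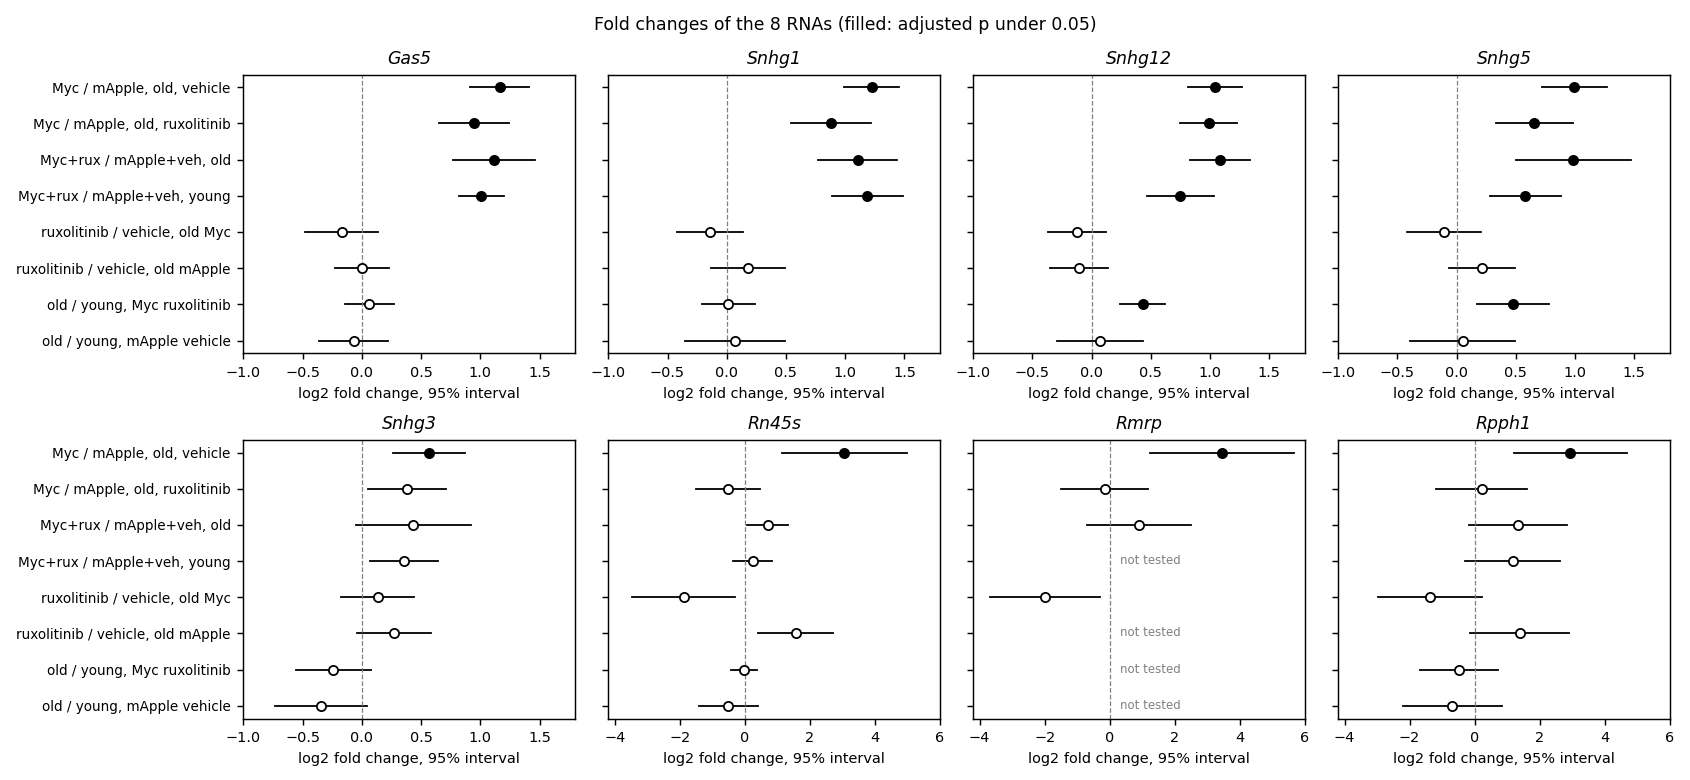
Log2 fold change (dot, edgeR) with its 95% interval (line) of the 8 RNAs in 8 comparisons, written as first group over second; filled dots have an adjusted p under 0.05, and the lower right panels have a wider axis. The 4 hosts of the upper row are filled in every Myc comparison, at 0.58 to 1.22, while Rn45s, Rmrp and Rpph1 are filled in the vehicle comparison of old livers.

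Rn45s, Rmrp and Rpph1, called the structural RNAs from here on, varied widely between livers of 1 group. After the mean of each group and batch was removed, the SD of log2(CPM + 1) was 1.21 for Rn45s, 0.91 for Rmrp and 1.21 for Rpph1, larger than in 99.8%, 99.3% and 99.8% of 12774 genes with a mean of at least 1 CPM. For the 5 hosts it was 0.25 to 0.31, larger than in 55.9% to 71.5% of genes. Without library 858 the values for the 3 structural RNAs were 1.004, 0.73 and 1.09. Counts were few for Rmrp (median 7.75 counts a library, 14 of 58 libraries at or under 3 counts and 3 at 0) and Rpph1 (median 30.0), so Rmrp did not pass the count filter in 4 of the 10 comparisons.

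Levels per kilobase of counted length were compared within each group, by medians. Rn45s was the highest (183 to 527 CPM per kilobase), Gas5 the next (23.0 to 52.7) and Rmrp the lowest (0.635 to 2.95) in all 6 groups. In the 3 Myc groups the order between them was Snhg1 (21.8 to 26.4), Snhg12 (16.9 to 20.7) and Snhg3 (13.7 to 15.1). In the 3 mApple groups these lay close together, at 9.11 to 12.5 for Snhg1, 9.94 to 10.1 for Snhg12 and 9.88 to 11.7 for Snhg3, and their order changed between groups. Rpph1 stood above Snhg5 in every group but old mApple vehicle, where they were at 1.62 and 3.65 CPM per kilobase. In old Myc vehicle livers Rpph1 was at 14.6 and Snhg5 at 7.67 CPM per kilobase. The values were 5.42 and 4.40 in old mApple ruxolitinib livers, and 5.20 and 3.42 in young mApple vehicle livers.

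Under vehicle in old livers, the 3 structural RNAs were called higher with Myc, with calls that rested on few libraries. In the first batch, Rn45s in the 6 Myc libraries was at 1167, 1903, 2325, 7546, 13140 and 129600 CPM, against 447, 716, 808 and 1143 CPM in 4 mApple libraries. The lowest of the Myc values, 1167 CPM, stood just above the highest mApple value of that batch, 1143 CPM. The share of all genes set apart in that batch was not counted, and over both batches the Rn45s groups overlapped. In the second batch the 5 Myc libraries had 2566, 2838, 2881, 3645 and 11680 CPM, against 989, 1365, 2308 and 2831 CPM in 4 mApple libraries, and 1 Myc library fell below the highest mApple library.

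The fitted log2 fold change of Rn45s was 3.06 ± 0.98 (edgeR adjusted p = 0.0339), a fold of 8.32. Without library 858 it was 2.00 (a fold of 4.00, edgeR adjusted p = 0.0084). The call was lost in each batch alone (5.05, adjusted p = 0.0526, and 1.32, adjusted p = 0.158) and when any of libraries 1135, 1148, 854, 855, 862 or 863 was left out (2.70 to 3.04, adjusted p = 0.0536 to 0.0798).

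Rpph1, the catalytic RNA of RNase P, had 0.482, 0.598, 1.25, 5.33, 10.3 and 54.2 CPM in the first-batch Myc vehicle livers, against 0.0794, 0.152, 0.410 and 0.642 CPM in mApple vehicle livers. In the second batch it had 1.58, 3.95, 4.73, 6.38 and 12.2 CPM in Myc livers, against 0.345, 0.931, 1.28 and 4.41 CPM in mApple livers. The groups overlapped in both batches. The log2 fold change was 2.94 ± 0.89 (edgeR adjusted p = 0.0253), 2.26 without library 858 (adjusted p = 0.0202), and the call was lost in each batch alone (adjusted p = 0.0688 and 0.184) or without library 854, 855, 862 or 863.

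Rmrp, the RNA of RNase MRP, was at 0.0602 to 38.3 CPM in the Myc vehicle livers, against 0 to 1.51 CPM in the mApple vehicle livers. Its log2 fold change of 3.45 ± 1.13 (edgeR adjusted p = 0.0371) rested on few counts. Rmrp no longer passed the count filter without library 858, and likewise without any 1 of 6 other Myc libraries (866, 867, 1144, 1146, 1147 and 1148). In the second batch alone it was 1.94 (edgeR adjusted p = 0.316). Ccdc107, which overlaps Rmrp on the opposite strand, stood at 0.29 ± 0.10 (edgeR adjusted p = 0.0549), and its share in the Rmrp counts was not tested. Without library 1135, 1137, 854, 855, 862 or 863 the call was lost (3.20 to 3.47, adjusted p = 0.0508 to 0.0788), so that of 19 fits without 1 library 12 tested Rmrp and 6 called it.

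In the other Myc comparisons none of the 3 structural RNAs was called. Under ruxolitinib in old livers, Rn45s had 515, 2343 and 4826 CPM (lowest, median, highest) in 14 Myc livers, against 496, 2876 and 12900 CPM in 9 mApple livers (-0.52 ± 0.50, edgeR adjusted p = 0.513). In young livers it had 1871, 3074 and 4716 CPM with Myc and ruxolitinib, against 640, 2269 and 5580 CPM with mApple and vehicle (0.24 ± 0.30, edgeR adjusted p = 0.589). The groups overlapped widely in both. In old livers of the second batch it was 0.71 ± 0.32 (edgeR adjusted p = 0.171). Rpph1 was at 0.22 ± 0.71 under ruxolitinib, 1.17 ± 0.74 in young livers and 1.33 ± 0.77 in the second-batch old livers (edgeR adjusted p = 0.869, 0.263 and 0.278).

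For the drug, Rn45s had 515, 2343 and 4826 CPM (lowest, median, highest) in old Myc ruxolitinib livers, against 1167, 2881 and 129600 CPM in old Myc vehicle livers (-1.87 ± 0.81, edgeR adjusted p = 0.304). Without library 858 the log2 fold change was -0.92 (adjusted p = 0.397), and in a single fit of all 58 libraries it was -2.45 and passed (adjusted p = 0.0246). In old mApple livers Rn45s had 496, 2876 and 12900 CPM with ruxolitinib, against 447, 1066 and 2831 CPM with vehicle (1.56 ± 0.58, edgeR adjusted p = 0.387). Groups overlapped in both. Rmrp stood at -1.99 ± 0.86 and Rpph1 at -1.38 ± 0.81 in Myc livers (edgeR adjusted p = 0.306 and 0.433). For Rn45s the difference between these drug effects, Myc minus mApple, was -3.91 ± 1.06 with an unadjusted p of 0.000681 and an edgeR adjusted p of 0.814. A difference was called for 0 of the 8 RNAs and for 0.0% of 13987 genes by edgeR, with 726 genes at an unadjusted p under 0.05, and for 0 genes by DESeq2. Without library 858 the difference for Rn45s was -2.51 ± 0.72, and in the second batch alone -1.57 ± 0.56. These drug comparisons share their libraries with the Myc comparisons of old livers.

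**Figure D3:**
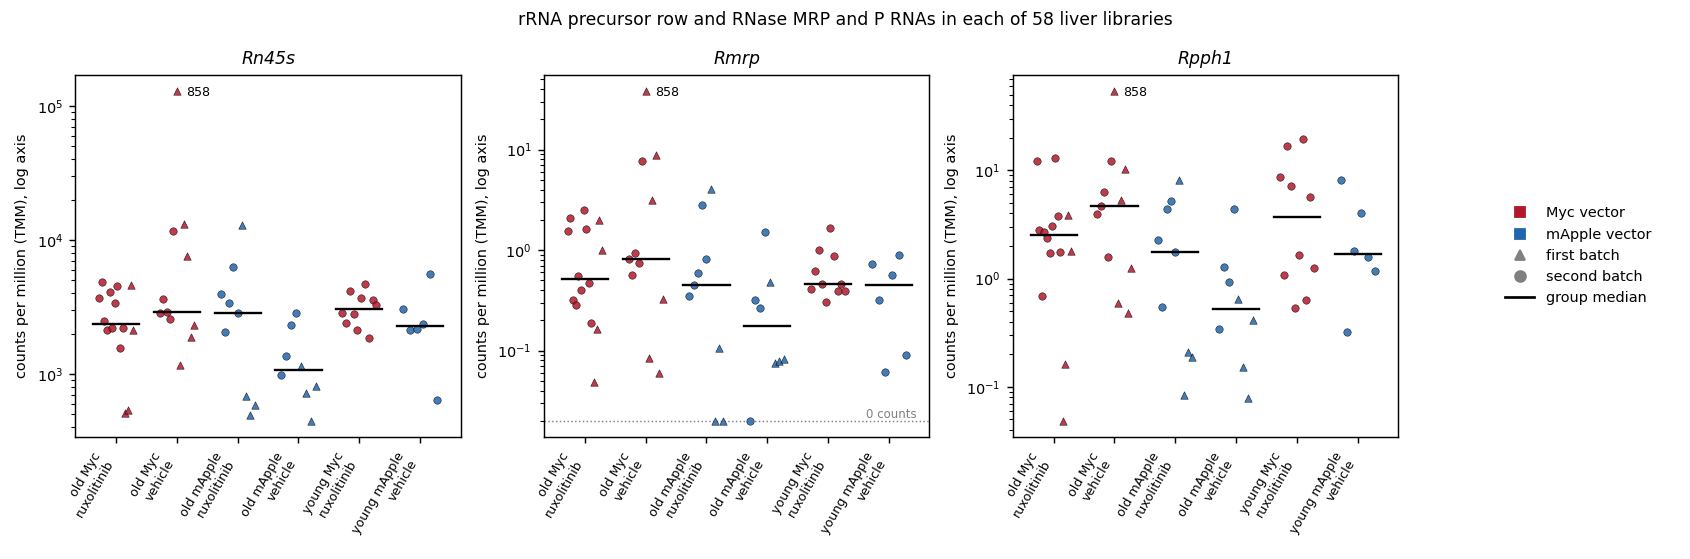
Level (CPM with TMM scaling, log axis) of Rn45s, Rmrp and Rpph1 in each library, by group; red is the Myc vector and blue mApple, triangles are the first batch and circles the second, bars are group medians, and the 3 Rmrp libraries with 0 counts are drawn on the dotted line. Library 858, an old Myc vehicle liver, is the highest of the 58 in each panel, at 129600, 38.3 and 54.2 CPM.

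Library 858, from an old Myc vehicle liver of the first batch, stood apart in these RNAs. Rn45s took 11.3% of its 12.03 M exon counts (95% Wilson interval 11.28 to 11.31%, counting error only) and was its most abundant gene. In the other 57 libraries Rn45s took 0.0407 to 1.45%, with a median of 0.257%, and ranked between 3 and 258 among genes. The next highest library was 866, of the same group and batch, at 13140 CPM against 129600 CPM in library 858.

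Of 12774 genes, 5 were more than a log2 difference of 3 above the median of the 5 other libraries of that group and batch, and all 5 were at their highest of the 58 libraries there. These were Rn45s, Rmrp (38.3 against a median of 0.329 CPM), Rpph1 (54.2 against 1.25 CPM), the microRNA row Mir6236 (1140 against 34.8 CPM) and Lars2, which encodes a mitochondrial leucyl-tRNA synthetase (4990 against 261 CPM). Mir6236 and Lars2 were found by this rule after values were seen. The next in order, named on the same terms, were Rgs16 (227 against 46.6 CPM) and the clock-controlled genes Nr1d1 (146 against 36.7 CPM) and Dbp (87.2 against 22.9 CPM).

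The snoRNA hosts of library 858 were not set apart in this way. Gas5 was at 171 CPM, against 94.4 to 222 CPM in the 5 other libraries, and Snhg1 at 9.73 CPM, against 7.17 to 11.7 CPM. Snhg12, at 17.3 CPM, was above its range of 9.40 to 16.6 CPM in those 5 and was the second highest of all 58. Alb (129000 CPM), Myc (108 CPM) and the number of genes detected (16164, against 16176 to 16670 in the 5 others) were close to or within the values of those libraries. The nuclear RNA Malat1 was at 214.6 CPM, above the 52.5 to 115 CPM of those 5 and at rank 20 of all 58, and Kcnq1ot1, another nuclear RNA, at 10.9 CPM was above all 57 other libraries (median 3.53 CPM in the 5). These 2 RNAs were chosen after their values were seen.

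**Figure D4:**
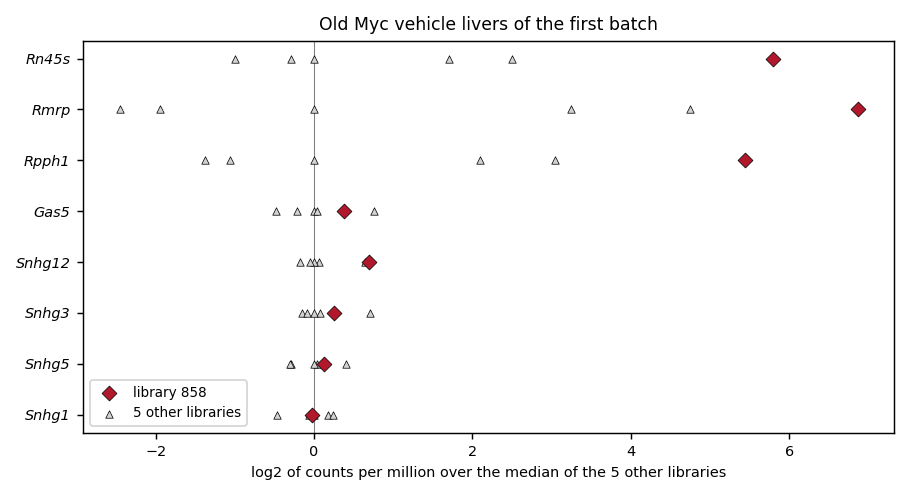
Log2 of each RNA's CPM over the median of the 5 other old Myc vehicle libraries of the first batch, with library 858 as a red diamond and the 5 others as grey triangles. Rn45s, Rmrp and Rpph1 of library 858 lie 55.7, 116 and 43.3 times above the medians, and its host RNAs between 0.982 and 1.62 times.

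The wide spread of Rn45s was not limited to library 858. Libraries 866 and 867 (old Myc vehicle, first batch), 1148 (old Myc vehicle, second batch) and 856 (old mApple ruxolitinib, first batch) held the next 4 highest Rn45s levels, at 13140, 7546, 11680 and 12900 CPM. The same 4 libraries held the next 4 highest Rmrp levels, at 3.13, 8.86, 7.79 and 4.05 CPM. Rpph1 was at 5.33, 10.3, 12.2 and 8.10 CPM in them, and the next highest library after 858 was 1125 (young Myc ruxolitinib) at 19.3 CPM.

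Within group and batch, the 3 structural RNAs varied together. Over 58 libraries, deviations from the group and batch means of log2(CPM + 1) correlated between Rn45s and Rmrp with a Pearson r of 0.88. A rank correlation, called rho here, was 0.835. For rho, levels were ranked over all libraries compared, and the mean rank of each group and batch was then removed. Permutation within group and batch gave a two-sided p = 1e-05 for each, the smallest that 100000 permutations can give (adjusted p = 3.5e-05 and 4e-05 over 28 pairs). Without the 2 libraries farthest from the median of Rn45s, 858 and 862, r was 0.822. For Rn45s and Rpph1 r was 0.756 and rho 0.762, with an r of 0.683 without the same 2. For Rmrp and Rpph1 r was 0.745 and rho 0.748, with an r of 0.638 without libraries 867 and 858. The permutation p and adjusted p of both pairs were the same as for Rn45s and Rmrp.

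The structural RNAs did not share that variation with the hosts past the threshold: over 15 pairs r ran from -0.177 to 0.306, and the smallest adjusted permutation p was 0.234 (0.0986 for rho). Among the 5 hosts r ran from 0.30 to 0.739 over 10 pairs, with 7 pairs past an adjusted permutation p of 0.05 by r and 9 by rho. Gas5 and Snhg1 were the closest host pair (r = 0.739, rho = 0.677, and r = 0.703 without libraries 1136 and 857). All pairs share the libraries' depth and scaling.

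The genes most like each RNA in these deviations, out of those with a mean of at least 1 CPM, are given as a description over 58 libraries. Mir6236 came first and Lars2 second for all 3 structural RNAs, with a Pearson r of 0.953 and 0.93 for Rn45s, 0.888 and 0.763 for Rmrp, and 0.806 and 0.75 for Rpph1. Without library 858 those for Rn45s were 0.929 and 0.895. Whether the Mir6236 and Lars2 rows count reads that belong to Rn45s was not tested. Under vehicle in old livers both rows were also higher with Myc, Mir6236 by 2.56 ± 0.85 and Lars2 by 2.60 ± 0.82 on the log2 scale (edgeR adjusted p = 0.0399 and 0.0311), in a comparison that holds library 858. Neither row was called in the other Myc comparisons: Mir6236 stood at -0.55 ± 0.41 and Lars2 at -0.34 ± 0.45 under ruxolitinib, at 0.19 ± 0.27 and 0.12 ± 0.33 in young livers, and at 0.54 ± 0.34 and 0.76 ± 0.32 in second-batch old livers (edgeR adjusted p = 0.136 to 0.821).

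The hosts had other neighbours. Gas5 was nearest to Rpl17, a protein of the large ribosomal subunit (r = 0.817), Zfas1, another snoRNA host (0.812), and Eef1b2, a translation elongation factor that hosts snoRNAs too (0.805). Zfas1 was also the nearest gene to Snhg1 (0.705) and Snhg12 (0.722). Snhg5 was nearest to Gm5088 (0.675), Rsl1d1 (0.62) and Gnl3 (0.607), where Rsl1d1 and Gnl3 encode nucleolar proteins, and Snhg3 to Psme3 (0.603), Diexf (0.602) and Nop56 (0.599).

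Inside Myc livers, levels of some hosts were related to the level of Myc. Over 35 libraries, with group and batch means removed, Snhg1 correlated with Myc at r = 0.453 and rho = 0.423 (permutation p = 0.00032 and 0.00324, adjusted over 8 RNAs p = 0.00256 and 0.00864), and r was 0.501 without libraries 867 and 870. Snhg5 did at r = 0.37 and rho = 0.481 (adjusted permutation p = 0.017 and 0.00812; r = 0.496 without the same 2). Gas5 (r = 0.427, adjusted permutation p = 0.158), Snhg3 (0.297, 0.167) and Snhg12 (0.294, 0.321) did not pass by r, although by rho Gas5 (0.429, adjusted permutation p = 0.043) and Snhg3 (0.518, adjusted permutation p = 0.00392) did. Rn45s, Rmrp and Rpph1 did not pass by either (r = 0.35, 0.401 and 0.322, adjusted permutation p = 0.331, 0.328 and 0.321).

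For the polyA selection, levels of other RNAs listed as lacking a polyA tail are given as a description. They are no measure of the selection itself, since the same sums also varied by group. The 127 other small structural RNAs in the table, such as snoRNAs and spliceosomal RNAs, summed to 7.82 to 22.8 CPM over the 58 libraries, and replication-dependent histone genes to 94.9 to 258 CPM. Library 858 was inside both ranges, at 13.5 and 135 CPM. By group, the small structural RNAs had medians of 15.4 and 16.6 CPM in old Myc ruxolitinib and old Myc vehicle livers, against 11.3 and 9.63 CPM in old mApple ruxolitinib and old mApple vehicle livers. They had medians of 15.8 CPM in young Myc ruxolitinib livers, against 10.4 CPM in young mApple vehicle livers. Few of them could be tested: 0 of 2 were called under vehicle and 1 of 5, Snora65 (1.19 ± 0.24, edgeR adjusted p = 0.00202), under ruxolitinib. Of all genes, 10.8% and 8.49% were called higher there. In second-batch old livers 1 of 9 was called, again Snora65, where 6.56% of all genes were called higher. In young livers 0 of 2 were called. These counts are too few to set apart from those shares. The histone rows had medians of 153 and 135 CPM in old Myc ruxolitinib and old Myc vehicle livers, against 158 and 123 CPM in old mApple ruxolitinib and old mApple vehicle livers. In young livers they had 223 CPM with Myc and ruxolitinib, against 176 CPM with mApple and vehicle. Of 13 tested, 6 rose, where 13.5% of 12829 genes were called higher. Between old and young Myc ruxolitinib livers 9 of 12 histone rows fell (median log2 fold change -0.54). There 33.6% of 12768 genes were called in either direction and 18.0% were called higher. Short snoRNAs lie inside host introns and their rows were thin: Snord47 in Gas5 reached 1.27 CPM and Snord22 in Snhg1 reached 1.56 CPM at most. How these RNAs entered the polyA libraries was not tested.

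Genes that work with the 8 RNAs were counted from lists written from general knowledge with earlier results known; Dkc1, Nop56 and Nop58 are both protein-coding hosts and snoRNP genes. Of 12 tested other snoRNA hosts without a long protein product, 9 rose with Myc under vehicle in old livers (median log2 fold change 1.05), 8 rose under ruxolitinib (0.71), 9 rose in young livers (1.06), and 9 of 13 rose in second-batch old livers (0.88). The medians of all genes lay between -0.02 and 0.01 in these 4 comparisons, and the shares of all genes called higher were 10.8%, 8.49%, 13.5% and 6.56% in the same order. Among these hosts was Zfas1 (2.25 ± 0.21, edgeR adjusted p = 6.6e-06, under vehicle, and 1.77 ± 0.22, adjusted p = 2.9e-05, under ruxolitinib), with Snhg15 at 1.70 ± 0.20 under vehicle. Of 22 protein-coding snoRNA hosts, 19 rose under vehicle (median 0.67), 17 under ruxolitinib, 20 in young and 16 in second-batch old livers, among them Eef1b2 (1.18 ± 0.13, edgeR adjusted p = 1.76e-05, under vehicle) and the ribosomal protein gene Rps12 (1.04 ± 0.13). None of either list was called for ruxolitinib in either vector group.

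Genes for proteins that bind snoRNAs were mostly higher with Myc as well. Of 13 snoRNP genes, 12 rose with Myc under vehicle, 11 under ruxolitinib, 12 in young livers and 7 in second-batch old livers, beside the 10.8%, 8.49%, 13.5% and 6.56% of all genes called higher. They include Nhp2, a box H/ACA core protein (1.26 ± 0.14, edgeR adjusted p = 1.65e-05, under vehicle), Dkc1, the pseudouridine synthase (1.05 ± 0.16), and Fbl, the methyltransferase fibrillarin (0.67 ± 0.10). Of 15 genes of RNA polymerase I and ribosomal DNA transcription, 10 rose under vehicle (median 0.48), 9 under ruxolitinib, 9 in young and 5 in second-batch old livers, to be read against the same shares. The polymerase subunit gene Polr1b was at 0.79 ± 0.11 under vehicle (edgeR adjusted p = 8.59e-05), with Taf1d, of the promoter selectivity factor, at 0.78 ± 0.14.

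Few genes for protein subunits of RNase P and RNase MRP passed, too few to set apart from the background. Of 10 tested, 2 rose under vehicle and 2 under ruxolitinib, both times Rpp14 (0.59 ± 0.11 under vehicle, edgeR adjusted p = 0.000823) and Rpp38 (0.72 ± 0.23 under vehicle, adjusted p = 0.0322), where 10.8% and 8.49% of all genes were called higher. In young livers 3 rose and 1 fell (27.5% of all genes called in either direction), and 1 rose in second-batch old livers (6.56% called higher). Of 10 nonsense-mediated decay factors, which degrade many spliced host RNAs, 0 were called under vehicle by edgeR, 1 rose under ruxolitinib (Upf3b, 0.29 ± 0.07) and 1 fell in young livers (Smg6, -0.23 ± 0.06). Between old and young Myc ruxolitinib livers, 8 of 13 snoRNP genes fell (median -0.27, against 0.02 for all genes), among them Nolc1 (-0.65 ± 0.13, edgeR adjusted p = 0.000642) and Dkc1 (-0.47 ± 0.10). In that contrast 8 of 22 protein-coding hosts fell and 0 rose. Of all 12768 tested genes, 33.6% were called in either direction and 18.0% were called higher, and the remaining calls were lower. The falls in both lists are to be read against that remainder. Of 12 other hosts without a long protein product 2 rose, Snhg11 (0.92 ± 0.19) and Snhg8 (0.30 ± 0.08), a share near the 18.0% of all genes called higher there.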

How the data were processed

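Whole-liver polyA RNA of 58 mice was sequenced as paired 75-base reads, per the labels' protocols. The submitters' processing notes name STAR, HOMER and GRCm38 (mm10); versions are not given in the sources used here. The authors deposited estimated counts per gene: per the file headers, unnormalized HOMER values over exons with 1 transcript kept per symbol, without regard to strand. Values are multiples of 0.5 (29.9% not whole) and were rounded before each count model.

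Here all 8 RNAs were matched by symbol. The 10 comparisons were each fitted over all genes with edgeR 4.0.16 (R 4.3.3), by two-sided quasi-likelihood tests on TMM-scaled libraries of the groups compared. Low genes were removed by filterByExpr (minimum count 10), batch was a covariate wherever a comparison spanned both, and Benjamini-Hochberg adjustment covered every tested gene, with calls at 0.05. The standard error was the absolute log2 fold change divided by the square root of F, and 95% intervals are 1.96 standard errors each way. Levels are TMM-scaled CPM, with 1 added on the log2 scale. Libraries held 10.68 to 40.98 M counts, so that 3 counts, the floor used here, are worth 0.0732 to 0.281 CPM. This floor and the Wilson interval of library 858 cover counting error only. Among 164 pairs of libraries of 1 group and batch none held identical values, with chi-squared per degree of freedom at or above 8.04. The pipeline was tested on simulated counts. Levels, correlations and figures used Python 3.11.15, with matplotlib 3.10.9 for drawing and scipy 1.17.1, pandas 2.3.3 and numpy 2.4.6 for the rest.

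The 8 members, the gene lists and the markers were chosen with earlier results of these data known. Genes other than members were named by rule: up to 4 of each list with the smallest p past the threshold, and the 3 most correlated genes of each member; others are said to be chosen after their values were seen. Rcc1, Ccdc107, Ccnb1ip1 and Gm17300 are named for their overlap. Alternatives were RLE size factors, library totals, totals without structural RNAs, DESeq2 1.42.0, no filter, a minimum count of 50, a single fit of 58 libraries, no batch term, each batch alone, fits without libraries 858, 870 or 860, 861, 864 and 865, and 86 refits without 1 library each in the Myc comparisons, the mApple age comparison and the test between ages. Promoters come from RefSeq (GRCm38.p6, which matched 5 of 8 symbols) and the RNase RNAs from GENCODE M21. Other combinations of vector and drug in young mice were not analysed here.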

Additional observations from a re-analysis of the deposited data

Results flagged for a closer look

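Of 80 sets of 1 RNA in 1 group and batch of 4 to 10 libraries, 7 held a library whose gap to its nearest neighbour was large for the range of the set, where chance flags about 1 in 20. All 7 were structural RNAs and in each the library was the highest. Library 858 was not flagged by this rule for any of the 8 RNAs. Its Rn45s set also held libraries 866 and 867, at 13140 and 7546 CPM. Rn45s was at 11680 CPM in library 1148 (old Myc vehicle, second batch), with the next at 3645 CPM, and at 12900 CPM in library 856 (old mApple ruxolitinib, first batch), with the next at 681 CPM. Rmrp was at 7.79 CPM in library 1148, with the next at 0.934 CPM. It was at 4.05 CPM in library 856 and 2.84 CPM in library 1142 (old mApple ruxolitinib, second batch), with the next at 0.106 and 0.820 CPM. In library 854 (old mApple vehicle, first batch) Rmrp was at 0.481 CPM, with the next at 0.0821 CPM, a difference of few counts. Rpph1 was at 8.10 CPM in library 856, with the next at 0.212 CPM. The cause of these values was not tested.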

How the results depend on the processing

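No paired analysis was possible because library names carry no replicate numbers shared between groups, so no replicate block could be fitted. No value past the threshold changed sign under any alternative. For Gas5, Snhg1, Snhg5 and Snhg12, 376 values kept their side of the threshold and 4 lost it under other settings, and 341 kept and 3 lost it when 1 library was left out. The number of the 8 RNAs called with Myc under vehicle was 4 in either batch alone and 5 to 8 when 1 library was left out; under ruxolitinib it was 0 in the first batch alone; for the drug in Myc livers it was 1 in a single fit of 58 libraries. Genes called for the drug in mApple livers (53) numbered 10 with library totals, 142 with DESeq2, 26 with no batch term, 6 in the first and 10 in the second batch alone. Those for the drug in Myc livers (70) numbered 43 with library totals, 159 with DESeq2, 321 in the single fit, 44 with no batch term, 918 in the first and 8 in the second batch alone. Those for Myc under vehicle (2540) numbered 1472 with no batch term, 731 in the first and 627 in the second batch alone, and under ruxolitinib (1981) 1029 with no batch term and 0 in the first batch alone. Those for Myc with ruxolitinib in second-batch old livers (1505) numbered 3351 in the single fit and 533 to 1657 when 1 library was left out. Those for age in mApple livers (147) numbered 664 with DESeq2, 75 with a minimum count of 50 and 30 to 511 when 1 library was left out, and those for the test between ages (35) numbered 8 with library totals, 202 with DESeq2, 12 with no filter and 3 to 77 when 1 library was left out. The share of Rn45s in library 858 was 12.73% of counts other than Alb. The cause of these moves was not tested. Low counts limit Rmrp, which 3 libraries hold at 0 counts.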
